A study of Rattus norvegicus with 9 samples.

Results

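The NMDA receptor subunit genes Grin1, Grin2a, Grin2b, Grin2c and Grin2d were followed in the frontal cortex of individual Lewis rats. They are 5 of the 10411 genes that the array measures with a probe set of their own, and were represented by 8 of its 15866 probe sets that are not controls, chosen because the annotation of the array platform gives each of them 1 gene symbol and that symbol is one of the 5 genes. Grin1, Grin2a and Grin2d had 2 probe sets each, and Grin2b and Grin2c had 1. The animals were 9 untreated males of the inbred Lewis strain from experiment 1 of the study, weighing 200 to 250 g, housed singly and killed 12 days after their last behavioural test. Ages and the units of the behavioural values are not stated in the labels, and the design text names SF, locomotion and ASR but not the plus maze. Experiment 1 tested 20 rats for behaviour, and total RNA of the prefrontal cortex of 9 of them was hybridised to 1 Affymetrix array per rat. All 9 form 1 group without a control, so each comparison is a relation across individuals between expression and the startle, locomotion, plus maze or sugar feeding value of the rat.

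The NMDA receptor is a glutamate-gated cation channel that passes calcium when glutamate and a co-agonist, glycine or D-serine, are bound while the membrane is depolarised. Each receptor holds Grin1 subunits, which bind the co-agonist, together with Grin2 subunits, which bind glutamate and set the speed and block of the channel. In the forebrain Grin2a and Grin2b are the main partners of Grin1 in principal neurons, Grin2c is known mainly from the cerebellum and from glia, and Grin2d from early development and interneurons. The question named in the title of the study is whether brain mRNA levels go with behaviour among inbred rats.

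The sequence before the start of Grin1, the subunit every NMDA receptor needs, is shown because its probe sets anchor the comparisons below. It is the 250 bases upstream of the RefSeq start in build GRCr8, chr3:28528755-28529004 on the minus strand, written 5′ to 3′ along the gene, with capitals for each match to the core of a cAMP response element.
Grin1: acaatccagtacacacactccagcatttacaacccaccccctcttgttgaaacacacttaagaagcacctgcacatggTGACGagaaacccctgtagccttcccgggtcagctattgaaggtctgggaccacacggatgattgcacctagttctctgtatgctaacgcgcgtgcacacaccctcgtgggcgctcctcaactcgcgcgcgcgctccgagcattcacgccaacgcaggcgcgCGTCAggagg
Searched on both strands, the core TGACG matched 172 bases before the start and, on the other strand as CGTCA, 10 bases before it. The same letters occur in 18.2% of the 33469 RefSeq upstream windows of this length. The GC box GGGCGG, the Egr site, the CCAAT box and the E box CACGTG had no match on either strand, which says only that these letters are not in this window; they occur in 30.5%, 4.29%, 34.0% and 5.59% of windows. The window held 19 CG dinucleotides, against a median of 5 over all windows. The arrays did not measure anything at this sequence.

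Values are log2 expression per probe set, made by the authors with GCRMA, and a difference of 1 is a doubling. The level of a probe set depends on its own probes, so levels of different subunits are not set against each other, and only their spread and order over the rats are compared. Array medians ran from 4.11 to 4.28 over the 9 rats. Cortical identity was checked on marker genes. All 8 neuronal markers on the array passed the filter described below, as did Slc17a7, the vesicular glutamate transporter of cortical principal neurons, at a mean of 11.57. Tbr1, a cortical transcription factor, was below the filter at 2.51. Of markers of neighbouring regions, Drd1 and Drd2 for striatum, Th for olfactory bulb, Ttr for choroid plexus and all 3 cerebellar granule cell markers on the array were below the filter. Other markers of these lists passed it, namely Penk, Pde10a and Ppp1r1b for striatum at 8.97, 7.90 and 7.74, Cdhr1 for olfactory bulb at 3.27, and Folr1 and Foxj1 for choroid plexus or ependyma at 3.48 and 3.47. The arrays of rats 8 and 9 stood apart, with both beyond the other 7 rats on the same side in 26.9% of probe sets. The striatal list was the one of 13 marker lists in which both were above the others, with a mean log2 of 4.97 in rat 8 and 4.76 in rat 9 against 4.47 to 4.71. Both were above the other 7 in 9.33% of tested probe sets. Of the 8 striatal markers averaged, 3 passed the filter, so no difference particular to striatal genes is read from this. Because rats 8 and 9 stood apart, most results are also given for rats 1 to 7 alone. With 9 arrays, precision is limited by their number.

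Across individuals the spread differed between probe sets, also of the same gene. Grin1 1368572_a_at and Grin2c had spreads near the middle of all probe sets tested, Grin1 1389900_at and Grin2b wider ones, and the 2 Grin2a probe sets one of the smallest and one of the largest. Probe set 1368572_a_at of Grin1, whose suffix marks probes shared by several transcripts of the gene, ran from 9.25 in rat 1 over a median of 9.49 to 9.73 in rat 5. Its mean was 9.47 ± 0.167 (SD, n = 9), and the span between the extreme rats was 1.4-fold. Values were spread evenly, and rats 8 and 9 lay within the range of the others. The spread of this probe set was at percentile 40.8 of the 9520 tested.

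The second Grin1 probe set, 1389900_at, ran from 3.60 in rat 7 over 4.36 to 4.95 in rat 8, a 2.54-fold span. Its mean was 4.32 ± 0.348 (SD, n = 9). Rat 7 was low and rat 8 high, with the other 7 rats between 4.16 and 4.43. Its spread was at percentile 86.1, so the 2 probe sets of this gene differed in how far they varied.

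Grin2c, measured by 1368306_at, ran from 7.26 in rat 2 over 7.52 to 7.86 in rat 8, a 1.52-fold span with a mean of 7.52 ± 0.181 (SD, n = 9). Rat 8 was the highest and rat 9 lay on the median. Its spread was at percentile 46.4.

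Grin2b, measured by 1369745_at, lay at 3.51 in rat 4, 3.56 in the median rat and 4.55 in rat 8. The mean was 3.70 ± 0.334 (SD, n = 9), but the SD over rats 1 to 7 was 0.103. All rats except rat 8 lay between 3.51 and 3.80, so the 2.06-fold span came from 1 animal. Rat 9, the other array that stood apart, had 3.53. Grin2b had r = 0.626 with the 3 tested striatal markers over 9 rats and -0.167 over rats 1 to 7, and their part in the Grin2b values was not tested.

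The 2 Grin2a probe sets, which the annotation ties to the same sequence record, gave unlike pictures. Probe set 1387400_at was nearly flat, from 3.86 in rat 2 over 3.90 to 3.95 in rat 5, with a mean of 3.91 ± 0.030 (SD, n = 9) and 7 distinct values among 9 rats. Its SD was at percentile 1.5 of the probe sets tested. Probe set 1368985_at ran from 2.69 in rat 4 over 2.98 to 5.46 in rat 9, a 6.84-fold span with an SD of 0.975 at percentile 99.3. Its mean was 3.50, and the means of both Grin2a probe sets were below the array medians. How well they detect their transcript was not tested.

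Rats 7, 8 and 9 held the high values of 1368985_at, at 4.03, 4.60 and 5.46, and rats 1 to 6 lay at 2.69 to 3.12. It was 1 of 6 tested probe sets with both rats 8 and 9 above all others, and such values were found in 9.33% of probe sets. Its mean over rats 1 to 7, 3.06, lay under the limit of 3.22 for testing, so it was tested through the rats in which it was high. As a description without a test, its r with the mean z score of the 4 tested markers of excitatory cortical neurons, Slc17a7, Camk2a, Neurod2 and Nrgn, was 0.815 over 9 rats and 0.824 over rats 1 to 7. Mean log2 of the 6 such markers on the array ran from 7.14 to 7.65 over the rats, with rats 7, 8 and 9 highest at 7.65, 7.57 and 7.54. With the 8 general neuronal markers its r was -0.306 over 9 rats and 0.067 over rats 1 to 7. With the 9 interneuron markers it was -0.442 and 0.242. The part of these markers in the Grin2a values was not tested.

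Both Grin2d probe sets were below the filter and nearly flat. Probe set 1368951_at ran from 2.37 in rat 2 over 2.42 to 2.49 in rat 6, with an SD of 0.037, and 1368950_a_at from 1.94 in rat 2 over 1.98 to 2.01 in rat 1, with an SD of 0.024. These values moved with the floor of the array, taken as the median of the lowest 10% of probe sets, which ran from 1.94 to 2.02. The r with this floor was 0.886 for 1368951_at and 0.883 for 1368950_a_at over 9 rats, and 0.913 and 0.932 over rats 1 to 7. Among the 6346 probe sets below the filter the median r with the floor was 0.939, and among those tested 0.054. For the tested members it ran from -0.261 to 0.529, the latter for the flat Grin2a probe set.

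**Figure D1:**
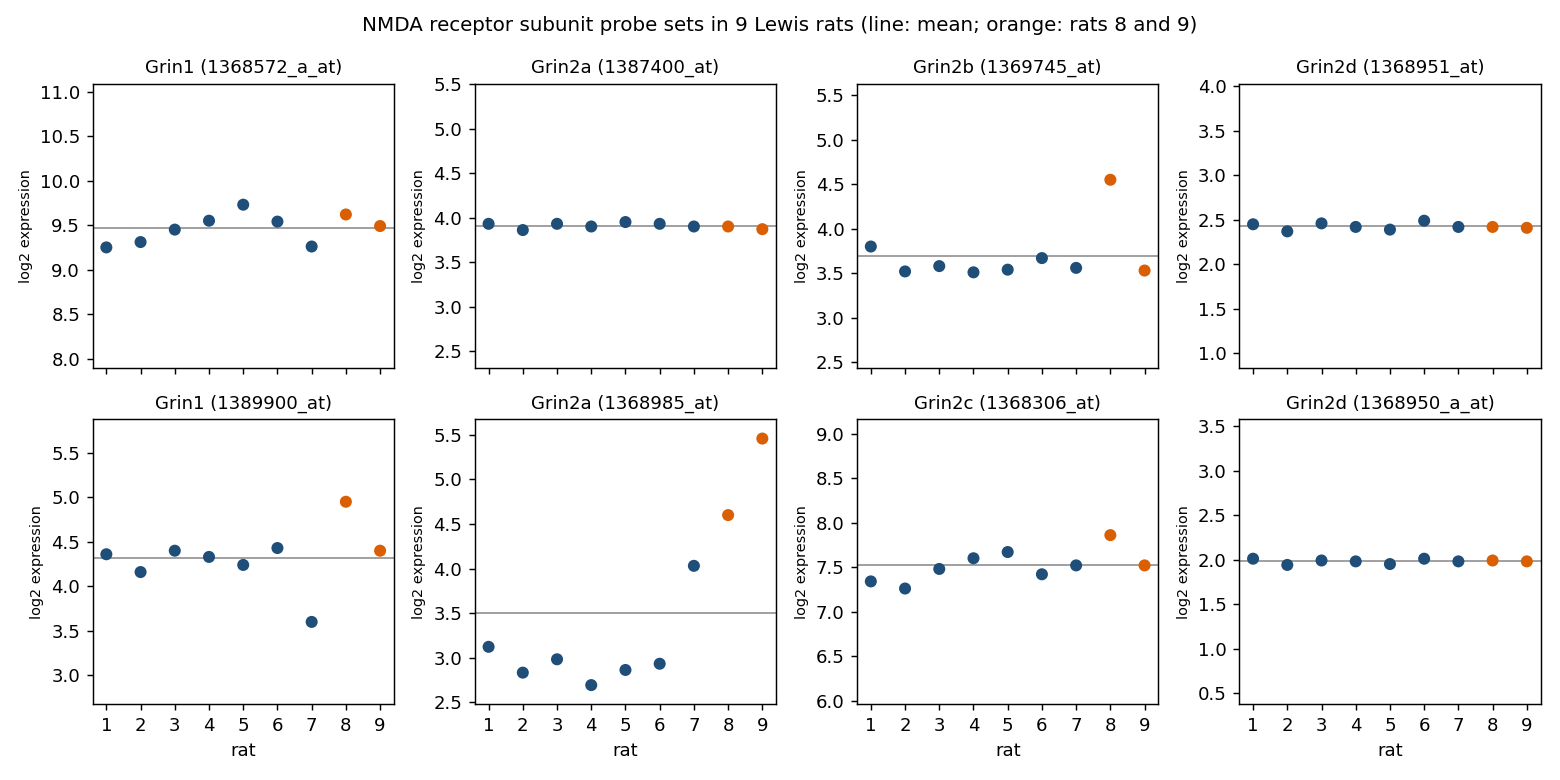
Log2 expression (vertical axis, each panel spanning the same number of log2 units) of the 8 NMDA receptor subunit probe sets in rats 1 to 9 (horizontal axis), with a line at the mean of the 9 rats and rats 8 and 9 in orange. Grin2a 1368985_at is high in rats 7, 8 and 9, Grin2b in rat 8 alone, and Grin2a 1387400_at and both Grin2d probe sets are nearly flat.

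Probe sets of the same gene were compared across rats to see whether they order the animals alike. For Grin1 the 2 probe sets gave r = 0.526 and rho = 0.350 (exact permutation p of 0.134 and 0.359), with r = 0.423 over rats 1 to 7. With rats 1 and 5 left out, whose 1368572_a_at values lie farthest from its median, r was 0.875, with an exact permutation p of 0.00317 and, adjusted over 3 pairs of probe sets, of 0.00952. Without rat 5 alone it was 0.724, with an adjusted exact permutation p of 0.0252. For Grin2a, r was -0.413 and rho = -0.136 (exact permutation p of 0.256 and 0.738), with -0.038 over rats 1 to 7. For this gene r was -0.788 without rat 2 and -0.814 without rats 2 and 5, where the adjusted exact permutation p was 0.0315 and 0.031. Of 13 alternatives for each of these genes, the 2 named were the only ones with an adjusted p under 0.05. That p is adjusted over 3 pairs of probe sets but not over the alternatives. The pairs of rats were picked by their values in 1 of the 2 probe sets, so no conclusion is drawn from these subsets.

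For Grin2d, r was 0.925 and rho 0.90, with exact permutation p of 0.000758 and 0.00203, and of 0.00227 for r when adjusted over 3 pairs. It was 0.932 over rats 1 to 7 and 0.887 without rats 2 and 6. The likeness was between probe sets that each span at most 0.122 log2 units over the rats and that both go with the array floor. With quantile normalization applied once more it fell to 0.732, with an adjusted exact permutation p of 0.0808.

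Among different subunits, Grin1 and Grin2c varied together most closely over the 9 rats, but no pair passed the threshold after adjustment. Rats 1 and 2 were among the lowest in both genes and rats 5 and 8 were the highest in both. Between Grin1 1368572_a_at and Grin2c, r was 0.723 and rho 0.762, with exact permutation p of 0.0255 and 0.0213, and of 0.332 and 0.276 once adjusted over 13 pairs. It was 0.731 over rats 1 to 7 (exact permutation p = 0.0613) and 0.647 without rats 1 and 5. Over all 13 alternatives it ran from 0.647 to 0.812, with adjusted p of 0.133 to 0.925. The second Grin1 probe set gave 0.451 with Grin2c over 9 rats and -0.103 over rats 1 to 7.

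The other pair with r above 0.7 was Grin1 1389900_at with Grin2b, at r = 0.703 and rho = 0.617, with exact permutation p of 0.121 (adjusted 0.522) and 0.0857. Rat 8 was highest in both, and without rats 8 and 9 r was 0.315. Thus 2 of 13 pairs reached 0.7 over the 9 rats, against 5.95% of all pairs of tested probe sets, and 1 of 13 over rats 1 to 7, against 6.97%.

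All 13 pairs of different subunits had r above 0 over the 9 rats, from 0.010 to 0.723, where 53.8% of all pairs of probe sets did. The pairs share probe sets and arrays and are not independent. Over rats 1 to 7, 8 of 13 were above 0, against 51.2% of all pairs, and the pair farthest from 0 was Grin1 1389900_at with Grin2a 1368985_at at r = -0.860 (exact permutation p = 0.114, rho = 0). In that pair rat 7 was lowest in the Grin1 probe set and highest of the 7 in the Grin2a probe set. Grin2b with Grin2c gave 0.599 over 9 rats and -0.442 over rats 1 to 7, and without rat 8 alone -0.456.

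**Figure D2:**
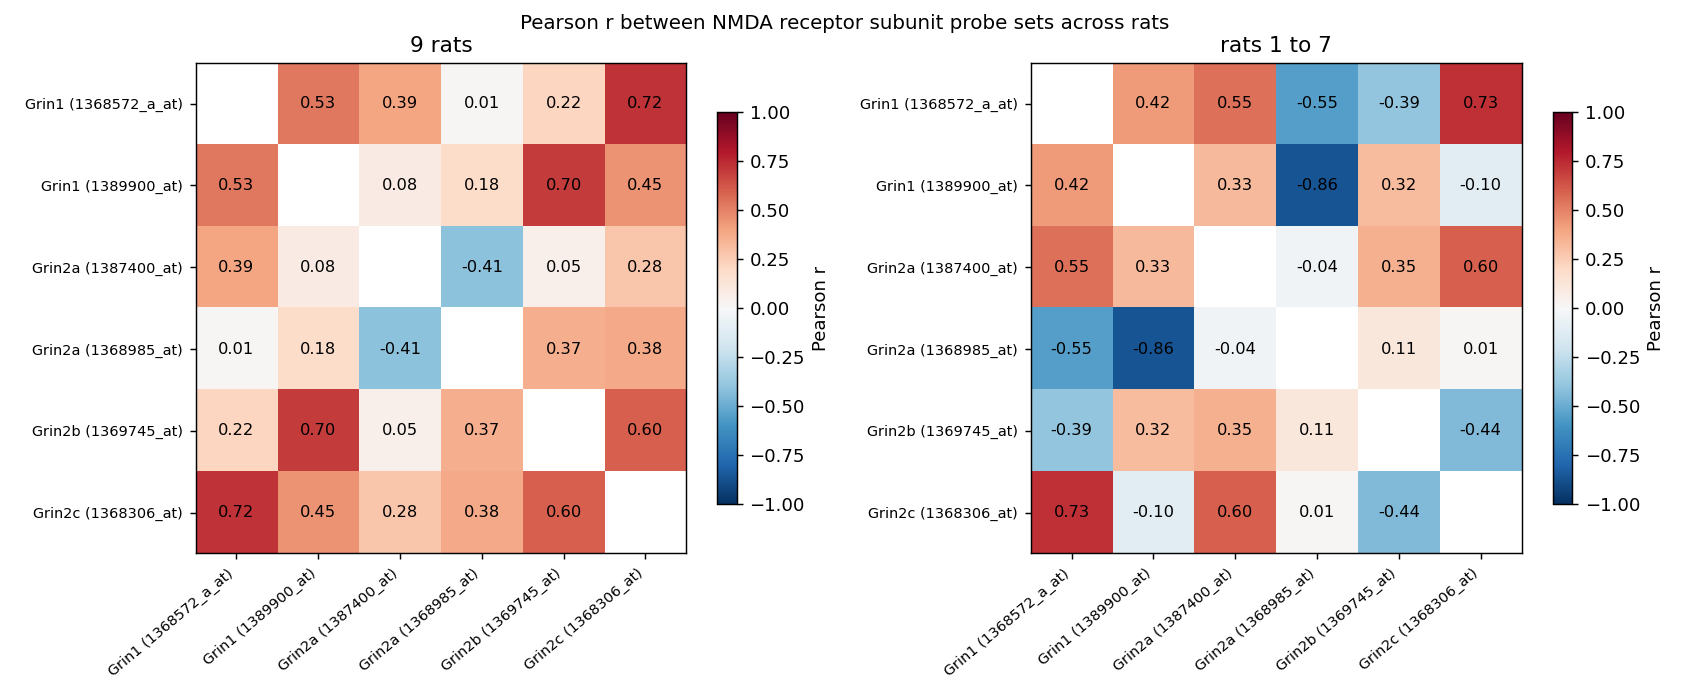
Pearson r between the 6 tested probe sets of NMDA receptor subunits, over all 9 rats (left) and over rats 1 to 7 (right), with colour from -1 (blue) to 1 (red) and the value in each cell. Grin1 1368572_a_at and Grin2c keep r of 0.72 and 0.73, while several pairs that are positive over 9 rats turn negative over rats 1 to 7.

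Against behaviour, the clearest relation was that of Grin2c with startle, the reflex to a sudden sound, with Grin2c lower in rats that startled more. It did not pass the adjusted threshold. It had the lowest exact permutation p of the 24 relations between tested members and behaviours. The unadjusted p values below do not allow for that choice. Grin2c was 7.86 in rat 8, which had the lowest startle value, 67.7, and 7.34 and 7.48 in rats 1 and 3, which had the highest, 458.6 and 501. Rat 2 had the lowest Grin2c, 7.26, at a startle of 295.8. Per SD of startle, Grin2c differed by -0.126 ± 0.0493 log2 units (slope with its SE, n = 9), with a limma adjusted p of 0.359 and an unadjusted p of 0.030.

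For Grin2c and startle r was -0.698 and rho = -0.753 (exact permutation p of 0.0348 and 0.0235). It was -0.827 without rats 1 and 3, whose startle was farthest from the median rat's (exact permutation p = 0.0254), where the slope was -0.24. It was -0.512 over rats 1 to 7 (exact permutation p = 0.240). Over 19 alternatives the slope stayed negative, between -0.24 and, over rats 1 to 7, -0.079, with adjusted p of 0.317 to 0.618. Grin2c was 1 of 6 tested members with an unadjusted p under 0.05 in limma, beside 13.2% of all probe sets for startle, and 0 of 6 passed an adjusted p of 0.05, beside 0.0% of all. Slopes on startle were negative, at any p, for 5 of 6 members and 38.5% of all probe sets. Among these 5, Grin1 1389900_at had -0.0077, which was within its SE of 0.118. That probe set and Grin2b were positive over rats 1 to 7, at 0.20 and 0.067, and the other members kept their sign. The 6 members share arrays, and some share a gene, so they are not independent.

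As a description without a test, some marker lists of cell types also moved with startle. The r was -0.713 for excitatory cortical neurons, 0.687 for the 5 tested endothelial markers and 0.601 for the 5 tested microglial markers. For the other lists compared it was 0.347 for astrocytes, -0.335 for neurons, -0.236 for striatum and -0.198 for oligodendrocytes. It was -0.138 for interneurons and -0.111 for meningeal cells or fibroblasts. With Grin2c the excitatory, endothelial and microglial lists had r of 0.426, -0.262 and -0.219. The 3 tested striatal markers had 0.602 with Grin2c over 9 rats and 0.241 over rats 1 to 7. The part of these lists in the relation of Grin2c with startle was not tested. In bulk tissue, fewer cells of a type and less RNA per cell cannot be told apart.

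**Figure D3:**
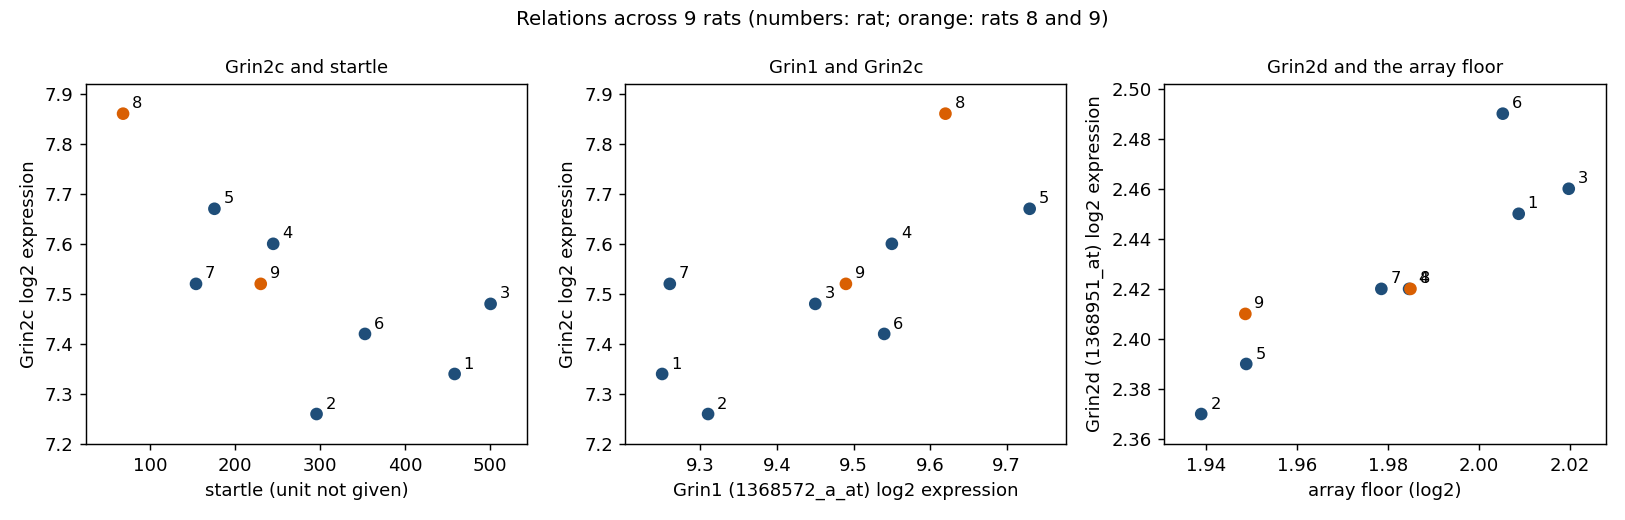
Each point is a rat, numbered, with rats 8 and 9 in orange. Left, Grin2c log2 expression against startle (r = -0.698); middle, Grin2c against Grin1 1368572_a_at (r = 0.723); right, Grin2d 1368951_at against the array floor in log2 units (r = 0.886), where rats 4 and 8 overlap.

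The other subunits had no settled relation with startle. For Grin1 1368572_a_at the slope was -0.069 ± 0.056 (SE, n = 9; r = -0.412, exact permutation p = 0.269), and for Grin1 1389900_at it was -0.0077 ± 0.118 (r = -0.022, exact permutation p = 0.961). Over rats 1 to 7 the second slope was 0.20, with r = 0.659 and rho = 0.786 (exact permutation p of 0.072 and 0.048), and without rat 8 alone it was 0.175. Over the same 7 rats this probe set had r of -0.959 with the excitatory neuron markers and 0.836 with the 8 astrocyte markers. Over all 9 rats these were -0.281 and 0.549, and the part of the markers in the relation was not tested. Rat 7 was lowest in this probe set, at 3.60, and highest in mean log2 of the excitatory markers, at 7.65. Without rat 7 alone the startle slope was -0.105. The log2 difference between the 2 Grin1 probe sets had r = -0.206 with startle over 9 rats (exact permutation p = 0.598) and -0.897 over rats 1 to 7 (exact permutation p = 0.00794, adjusted p = 0.0635 over 8 such tests).

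Grin2b had a startle slope of -0.127 ± 0.105 (SE, n = 9), with r = -0.381 and rho = 0.033 (exact permutation p of 0.351 and 0.948). It was 0.067 over rats 1 to 7 and 0.069 without rat 8, the rat of lowest startle and highest Grin2b, so its sign rested on that rat. Grin2a 1368985_at had the steepest slope, -0.47 ± 0.283 (r = -0.485, exact permutation p = 0.181), and -0.144 over rats 1 to 7. As given above, this probe set was tested through the rats in which it was high. The flat Grin2a probe set had 0.0070 ± 0.026 (r = 0.236, exact permutation p = 0.541). In limma the adjusted p of these probe sets ran from 0.466 to 0.981.

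Whether 2 subunits differed in their relation with a behaviour was tested on the log2 difference between them in each rat, for 6 pairs and 4 behaviours. Grin2a 1387400_at minus Grin2c had the lowest p, giving r = 0.762 and rho = 0.733 on startle, with exact permutation p of 0.016 (adjusted 0.383 over 24 tests) and 0.0311. Since this Grin2a probe set is nearly flat, the difference carries mostly the values of Grin2c. For Grin1 1368572_a_at minus Grin2c, startle gave r = 0.445 (exact permutation p = 0.230), and for Grin2b minus Grin2c it was -0.004 (exact permutation p = 0.993) over 9 rats and 0.648 over rats 1 to 7. None of the 24 passed after adjustment over 9 rats.

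For locomotion r was highest for Grin2b and the second Grin1 probe set, and 0 of 6 members had an unadjusted p under 0.05 in limma, beside 1.96% of all probe sets. The slope of Grin2b on locomotion was 0.167 ± 0.0992 (SE, n = 9), with r = 0.50 and rho = 0.083 (exact permutation p of 0.184 and 0.843). Rat 1, with the highest locomotion, 1102, and rat 8, the next at 946, had the highest Grin2b values, 3.80 and 4.55. Without rat 8 the slope was 0.0531, and over rats 1 to 7 it was 0.0561. Grin1 1389900_at had 0.137 ± 0.109 (r = 0.395, exact permutation p = 0.280), which was 0.0557 without rat 8 and 0.0497 over rats 1 to 7. Grin2c had 0.0080 ± 0.065 (r = 0.044, exact permutation p = 0.911), and -0.0502 over rats 1 to 7. Grin1 1368572_a_at had -0.031 ± 0.060, which was 0.059 without rat 1. The Grin2a slopes were 0.175 ± 0.319 for 1368985_at and -0.0041 ± 0.028 for 1387400_at. The former ran from 0.0214 without rat 8 to 0.57 without rat 1 and was -0.067 over rats 1 to 7 and -0.116 with a term for rats 8 and 9, so its sign was not settled. All 6 had a limma adjusted p of 1.00.

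For the plus maze, a test in which a rat chooses between open and closed arms, Grin2c again had the r farthest from 0, though 0 of 6 members had an unadjusted p under 0.05 in limma, beside 2.99% of all probe sets. Grin2c had a slope of -0.099 ± 0.057 (SE, n = 9), with r = -0.545 and rho = -0.426 (exact permutation p of 0.132 and 0.251). Rats 2 and 6, which shared the highest plus maze value, 18.7, had 7.26 and 7.42 in Grin2c, and without them r was -0.058. Over rats 1 to 7 r was -0.736 (exact permutation p = 0.0687). Grin2a 1368985_at had -0.40 ± 0.296 (r = -0.406, exact permutation p = 0.271), which was -0.164 without rat 9 and -0.112 over rats 1 to 7. The other 4 slopes ran from -0.038 for Grin1 1368572_a_at to 0.021 for Grin1 1389900_at. All 6 had a limma adjusted p of 0.999.

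For sugar feeding 0 of 6 members had an unadjusted p under 0.05 in limma, beside 1.4% of all probe sets, and every adjusted p was 1.00. Slopes were 0.138 ± 0.109 for Grin1 1389900_at (r = 0.396, exact permutation p = 0.267), 0.099 ± 0.109 for Grin2b (r = 0.297, exact permutation p = 0.363) and 0.074 ± 0.061 for Grin2c (r = 0.409, exact permutation p = 0.272). Grin2b had -0.018 without rat 8, and Grin2c had r = -0.252 without rats 4 and 8, the highest in sugar feeding. Grin1 1368572_a_at had 0.031 ± 0.060, and -0.158 without rats 4 and 8. The Grin2a slopes were 0.0301 ± 0.324 for 1368985_at, which ran from -0.135 without rat 8 to 0.755 without rat 4, and -0.00515 ± 0.028 for 1387400_at. The slope of Grin1 1389900_at ran from 0.0612 without rat 8 to 0.373 without rat 4, and that of Grin2c from 0.032 to 0.139 without the same rats. For Grin2d, which was fitted only with no filter, slopes on the 4 behaviours ran from -0.00645 to 0.0184 with a limma adjusted p of at least 0.447.

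**Figure D4:**
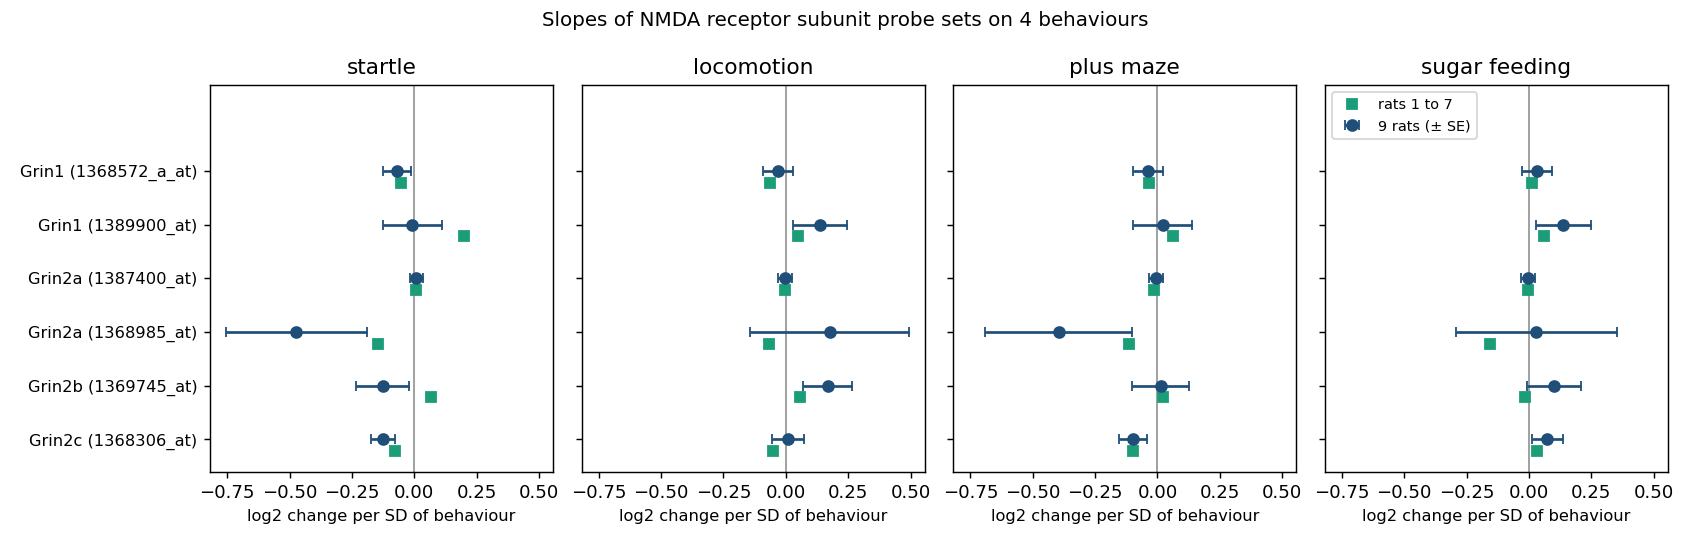
Slope of log2 expression per SD of each behaviour (horizontal axis) for the 6 tested probe sets, as points with SE bars over 9 rats and as squares over rats 1 to 7. Grin2c lies below 0 for startle in both, Grin1 1389900_at and Grin2b change side for startle, and the bars of Grin2a 1368985_at are the widest.

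Genes of the same pathway were read from 5 lists of receptor relatives, co-agonist and glutamate supply, postsynaptic scaffolds, kinases and phosphatases, and trafficking factors. Of 95 genes 66 were tested, 1 probe set each. For startle 6 had a negative and 5 a positive slope at an unadjusted p under 0.05 in limma, beside 4.64% and 7.79% of the 6793 genes tested, and 0 passed an adjusted p of 0.05. For the other 3 behaviours 0 of 66 had an unadjusted p under 0.05, where the share of genes was 1.37% negative and 0.545% positive for locomotion, 0.515% and 2.8% for the plus maze and 0.589% and 0.765% for sugar feeding. The median startle slope was -0.017 over the 66 and 0.021 over all genes.

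Among receptor relatives, Grin3a and Grin3b, the glycine-binding subunits, were below the filter at means of 2.92 and 2.43. Grina, which is named for the glutamate receptor but is no channel subunit, had a startle slope of -0.178 ± 0.043 (SE, n = 9) with r = -0.855 and rho = -0.850 (exact permutation p of 0.00304 and 0.00607). Its limma adjusted p was 0.359, and r was -0.773 over rats 1 to 7 and -0.913 without rats 1 and 3. Of 11 genes of co-agonist and glutamate supply, 1 was past the unadjusted threshold, Slc1a3, the glial glutamate transporter, with a slope of 0.182 ± 0.067 and an adjusted p of 0.359.

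Of 17 scaffold genes 2 were negative and 1 positive at that threshold. Dlgap3, a partner of the receptor's main anchor Dlg4, had a slope of -0.33 ± 0.093, and Shank1 had -0.205 ± 0.076. The mean of Shank1, 3.23, was just above the limit for testing. Its values ran from 2.97, which is below that limit, to 3.82. How well its probe set detects the transcript was not tested. Dlg1, a relative of Dlg4, had 0.156 ± 0.045. The scaffold list had a median slope of -0.096. Of 28 kinase, phosphatase and calcium signalling genes 3 were negative and 3 positive.

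Prkaca, the catalytic subunit of protein kinase A, had -0.224 ± 0.051, and Ptpn5, the phosphatase STEP that acts on Grin2b, -0.154 ± 0.046. Ppp1cc, of protein phosphatase 1, had 0.180 ± 0.047, and Ppp3cb, of calcineurin, 0.144 ± 0.043. All of these had a limma adjusted p of 0.359. Over rats 1 to 7 their r with startle was -0.777 for Prkaca, -0.847 for Ptpn5, 0.849 for Ppp1cc and 0.857 for Ppp3cb, and that of the genes above was -0.648 for Dlgap3, -0.463 for Shank1, 0.759 for Dlg1 and 0.665 for Slc1a3. Without rats 1 and 3, r was -0.784 for Prkaca, -0.487 for Ptpn5, 0.53 for Ppp1cc and 0.56 for Ppp3cb. For the genes above it was then -0.69 for Dlgap3, -0.804 for Shank1, 0.645 for Dlg1 and 0.673 for Slc1a3. Of 9 trafficking genes 0 were past the unadjusted threshold.

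The genes most like each subunit across rats were taken from 6766 genes, as the 3 of highest Pearson r over 9 rats and the 3 over rats 1 to 7. For Grin1 1368572_a_at they were Rnf112, Evi5l and Mpnd over 9 rats, at 0.929, 0.924 and 0.917, and Gas5, Wdr45 and Smyd2 over rats 1 to 7, at 0.959, 0.954 and 0.951. For Grin2c they were Mcf2l, Ypel3 and Ptov1 at 0.965, 0.913 and 0.905, and Dlg3, Bbs4 and Rusf1 at 0.952, 0.943 and 0.937. Dlg3, the scaffold SAP102 that binds NMDA receptors, had 0.328 with Grin2c over all 9 rats.

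For Grin2b the nearest were Pih1d1, Lmbr1l and Ret at 0.986, 0.981 and 0.981, which were 0.832, 0.764 and 0.684 over rats 1 to 7, and Nop16, Pxmp2 and Ell2 at 0.987, 0.973 and 0.972 over rats 1 to 7. Nop16 had -0.769 with Grin2b over 9 rats. For Grin2a 1387400_at they were Stk38, Plxnd1 and Gpn1 at 0.959, 0.957 and 0.946, all with an SD of 0.037 or less, and Rab3d, Prkd3 and Gpn1 at 0.969, 0.961 and 0.960. Such values are the highest among 6766 genes over 9 or 7 rats, and 3 to 51 genes reached 0.9 with a subunit over 9 rats.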

How the data were processed

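Expression was measured in 9 samples, 1 array per rat. Per the submitters' processing notes, the authors used GCRMA and R 2.6.2. The table they deposited holds log2 values, 1 per probe set and array; GCRMA adjusts for background with a model of each probe's sequence and normalizes between arrays, with settings not stated in the labels. The 57 control probe sets and the lowest 40% by mean (under 3.22) were left out, which kept 9520 and 6 of 8 members. Limma 3.58.1 in R 4.3.3 (lmFit, eBayes) fitted a slope per SD of each behaviour, two-sided, with Benjamini-Hochberg adjustment over the 9520. Tests of r and rho were two-sided and exact, by enumeration of 362880 orders of 9 rats or 5040 of 7, with numpy 2.4.6 and scipy 1.17.1. The fit was tested on the same arrays with the rats shuffled and known slopes added to some probe sets. Named genes are all members, up to 4 genes per pathway list and behaviour by limma p, and the 3 most alike per subunit, from the probe set of highest mean. Gene names came from the platform annotation. RefSeq upstream sequences matched Grin1, Grin2c and Grin2d. Those of Grin2c and Grin2d lie inside the span of longer models and are not shown. Members and lists were chosen with earlier results of these data known. The spread is between animals and also holds technical differences between arrays. Alternatives were other filters, normalizations, weights, ranks and subsets of rats.

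The marker lists had these results over the rats, as the lowest and highest mean log2 of the genes on the array. They were 11.05 and 11.34 for neurons, 7.14 and 7.65 for excitatory cortical neurons, 7.86 and 8.27 for interneurons, 8.82 and 9.37 for astrocytes, 8.71 and 9.39 for oligodendrocytes, 4.43 and 4.93 for microglia and 5.22 and 5.73 for endothelial cells. They were 3.97 and 5.49 for meningeal cells or fibroblasts, 2.82 and 2.98 for choroid plexus or ependyma, 2.53 and 2.76 for olfactory bulb, 4.47 and 4.97 for striatum, 6.62 and 8.09 for red blood cells and 1.99 and 2.07 for cerebellar granule cells.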

Additional observations from a re-analysis of the deposited data

Results flagged for a closer look

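Grin2b was the member with a sample far from the others. Rat 8 had 4.55 log2 units in probe set 1369745_at and the next rat 3.80, a gap that was 0.724 of the whole range of the 9 rats, above the critical value of Dixon's test of 0.493. The same test was made on all 8 member probe sets, and chance alone gives about 1 such case in 20 groups. Rat 8 is one of the 2 arrays that stood apart, and rat 9, the other, had 3.53.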

How the results depend on the processing

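No slope of the 6 tested members passed an adjusted p of 0.05 in limma under any of 440 alternative values, of which the lowest adjusted p was 0.31. A change of sign is counted here only where the value moved by more than 1 SE, and 54 smaller changes of sign were left out. At 70% the filter kept only Grin1 1368572_a_at and Grin2c. For startle, Grin1 1389900_at had 0.126 with a term for rats 8 and 9 and 0.201 without them, Grin2b had 0.0284 with array quality weights and 0.067 without rats 8 and 9, and Grin2a 1387400_at had -0.025 after quantile normalization and -0.0213 after median centring. Without the 2 farthest rats, Grin1 1368572_a_at had 0.0716 for locomotion and -0.158 for sugar feeding, and Grin2c -0.0768 for sugar feeding. Grin2b had -0.0174 for sugar feeding without rats 8 and 9. Over all probe sets, 1 passed for startle with no filter or with median centring, against 0. Leaving out each rat in turn, the startle slope ran from -0.105 to 0.175 for Grin1 1389900_at and from -0.191 to 0.0694 for Grin2b, the locomotion slope of Grin1 1368572_a_at from -0.0605 to 0.059 and the sugar feeding slope of Grin2b from -0.0179 to 0.425. The cause of these changes was not tested.

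Between subunits, r without rats 8 and 9 was -0.55 and -0.394 for Grin1 1368572_a_at with Grin2a 1368985_at and Grin2b, -0.86 and -0.103 for Grin1 1389900_at with Grin2a 1368985_at and Grin2c, and -0.442 for Grin2b with Grin2c, which had -0.219 without the 2 farthest rats. After quantile normalization Grin2a 1387400_at had -0.0047 and -0.473 with the 2 Grin1 probe sets and -0.158 with Grin2c, and the last was -0.416 without the 2 farthest rats. Leaving out each rat, r ran from -0.403 to 0.414 for Grin1 1368572_a_at with Grin2b, from -0.0696 to 0.707 for Grin1 1389900_at with Grin2c, from -0.117 to 0.466 for Grin2a 1387400_at with Grin2c, from -0.164 to 0.784 for Grin2a 1368985_at with Grin2b and from -0.456 to 0.705 for Grin2b with Grin2c. Between probe sets of 1 gene it ran from 0.311 to 0.724 for Grin1 and from -0.788 to -0.134 for Grin2a, with 0.875 and -0.814 without the 2 farthest rats and 0.732 for Grin2d after quantile normalization.

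For log2 differences, r without the 2 farthest rats was 0.393 and -0.392 for Grin1 minus Grin2a with locomotion and sugar feeding, -0.316 for Grin1 minus Grin2c with the plus maze and 0.223 for Grin2a minus Grin2c with sugar feeding. Without rats 8 and 9, r with startle was -0.47 for Grin1 minus Grin2b, -0.602 for Grin2a minus Grin2b and 0.648 for Grin2b minus Grin2c. There r was 0.141 for Grin2a minus Grin2b and 0.364 for the 2 Grin2a probe sets, both with sugar feeding, and 0.393 for Grin2a minus Grin2c with locomotion. Leaving out each rat, r with startle ran from -0.49 to 0.423 for Grin1 minus Grin2b, from -0.606 to 0.513 for Grin2a minus Grin2b and from -0.243 to 0.664 for Grin2b minus Grin2c. With locomotion it ran from -0.365 to 0.425 for Grin1 minus Grin2a and from -0.60 to 0.351 for Grin2a minus Grin2c, and with sugar feeding from -0.80 to 0.143 for Grin2a minus Grin2b. Of 1140 alternative values, 1088 were counted as unchanged, and the 54 smaller changes of sign are among them. The 1140 include 76 counts of probe sets, which have no direction.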
